A study of Mus musculus with 124 samples.

Results

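Aminoacyl-tRNA synthetases are the enzymes that join each amino acid to its transfer RNA. The genes examined were 36 named synthetases, 20 whose products charge tRNAs in the cytosol and 16 whose products, marked by a final 2 in the symbol, work in mitochondria. They were taken by symbol from the 2 tables, and all 36 were present among the 17108 named genes of the cortex table and the 13338 of the liver table. They were picked by name and not by their values, although earlier results of these data were known.

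The enzymes fall into class I and class II, which differ in the fold of the catalytic domain. In the cytosol Eprs (glutamyl-prolyl), Iars (isoleucyl), Lars (leucyl), Mars (methionyl), Qars (glutaminyl), Rars (arginyl), Kars (lysyl) and Dars (aspartyl) are held in one large complex by scaffold proteins, while the others act outside it. The mitochondrial enzymes are encoded in the nucleus, imported, and serve the translation of the few proteins encoded by mitochondrial DNA. Gars (glycyl) and Kars, counted here as cytosolic, encode the enzyme of both compartments. Many cytosolic synthetase genes belong to the amino acid response, in which the transcription factor Atf4 acts through a C/EBP-ATF response element when amino acids are scarce or protein synthesis is stressed.

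Both tissues, cortex and liver, of 62 mice aged 11 to 12 weeks and kept in 12 h light and 12 h dark were profiled by RNA-seq. Sleep deprivation by gentle handling began at light onset in 36 of them and lasted 6 h. Groups of 3 were killed partway through (T27), when it ended (T30) or during recovery, at T36, T42, T48 and T54, then T60, T66, T72 and T78, and at the late times T192 and T198. The number after T is the hour of the experiment, whose first 24 h were the baseline day. The 26 controls were undisturbed and are named by zeitgeber time (ZT, the hour of the light cycle, with lights on at 0), with 8 mice at ZT0, 3 at ZT3 and 5 each at ZT6, ZT12 and ZT18. Every deprived group was set against the controls of its own ZT, so T30, T54, T78 and T198 share the ZT6 controls. The labels used here give neither strain nor sex.

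Values are log2 CPM (each gene's reads scaled to a common library total, on a log2 scale), so a difference of 1 is a doubling, and differences between genes in level are not compared because the values are not per length. Antilogs summed to between 979200 and 1020000 per cortex library and between 919700 and 1070000 per liver library. Neuron markers averaged 8.42 to 12 in cortex and hepatocyte markers 11.2 to 16.2 in liver, and none of 5 Kupffer cell markers was listed in cortex. In bulk tissue fewer cells of a type and less RNA per cell cannot be told apart. A gene was called when limma's adjusted p was under 0.05.

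The promoters of some cytosolic members hold letters that match the core of the C/EBP-ATF response element, and those stretches are shown so that the values of the same genes, given later beside the amino acid response list, can be read with them. RefSeq promoter windows (GRCm38.p6, 250 bases before and 50 after the annotated first base) were matched for 27 of the 36 members, and for 9 none was. The motif TGATGNAA, searched on both strands, was found in 5 of the 13 matched cytosolic members and in 0 of the 14 matched mitochondrial members, against 3.97% of all 32851 windows. The E-box CACGTG, which has no overlap with that motif, was found in 4 and 1 of the same members and in 7.15% of all windows. A member was counted when any of its windows held the motif, while the background counts single windows, so these are unlike units. The stretches below run 5′ to 3′ on the gene's own strand, with the motif, or its reverse complement TTNCATCA, in capitals.
Aars, 112 bases upstream: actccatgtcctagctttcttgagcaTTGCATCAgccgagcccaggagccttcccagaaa
Gars, 30 bases upstream: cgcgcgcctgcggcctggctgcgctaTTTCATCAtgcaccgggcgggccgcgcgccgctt
Tars, 15 bases upstream: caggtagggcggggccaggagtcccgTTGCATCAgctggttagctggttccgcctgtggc
Iars, 7 bases downstream: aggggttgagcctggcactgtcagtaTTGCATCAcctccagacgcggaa
Yars, 3 bases downstream: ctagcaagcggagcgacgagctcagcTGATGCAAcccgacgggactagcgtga
These lie at chr8:111033704-111033763 (plus strand), chr6:55037945-55038004 (plus), chr15:11399640-11399699 (minus), chr13:49682111-49682159 (plus) and chr4:129189880-129189932 (plus). Aars held a second copy 9 bases downstream of its first base. A match of letters is a description and does not show that a factor binds there.

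In the sleep-deprived cortex a few synthetases moved, and they moved by small amounts in both directions. All called members had groups that did not overlap. Overlap was not counted over all genes, and it rests on the same values as the call, so it is no separate support. After 3 h of deprivation (T27) 4 of the 36 members were called, against 16.4% of all 17108 genes (8.59% higher and 7.84% lower). Of these, 2 cytosolic members were higher, Eprs and Iars, and 2 mitochondrial members were lower, Iars2 and Pars2. Without control T3N4 the count was 2. Counts with 1 library left out, here and below, are given without the share of all genes in the same fit. A changed count therefore cannot be read as particular to the members. Of 4 measured choroid plexus markers 3 were lower at T27, with a median change of −1.69. Their summed level was 5.54 to 7.01 CPM in deprived mice, against 9.53 to 125 CPM in ZT3 controls, none was at 0, and their part in the T27 results was not tested. At the end of deprivation (T30) 8 of 36 were called, 4 higher and 4 lower, against 32.4% of all genes (15.7% higher and 16.8% lower). Of 5 microglial markers 1 was higher and 2 lower at T30. Their summed level was 184 to 189 CPM in deprived mice, against 194 to 199 CPM in controls, with none at 0. At T30 1 of 6 neuron markers and 1 of 5 oligodendrocyte markers were lower too, and the part of these cells was not tested either. The median change of the 36 was −0.03 at T30, beside −0.01 for all genes, and the median size of the change was 0.08 for the members and 0.14 for all genes.

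**Figure D1:**
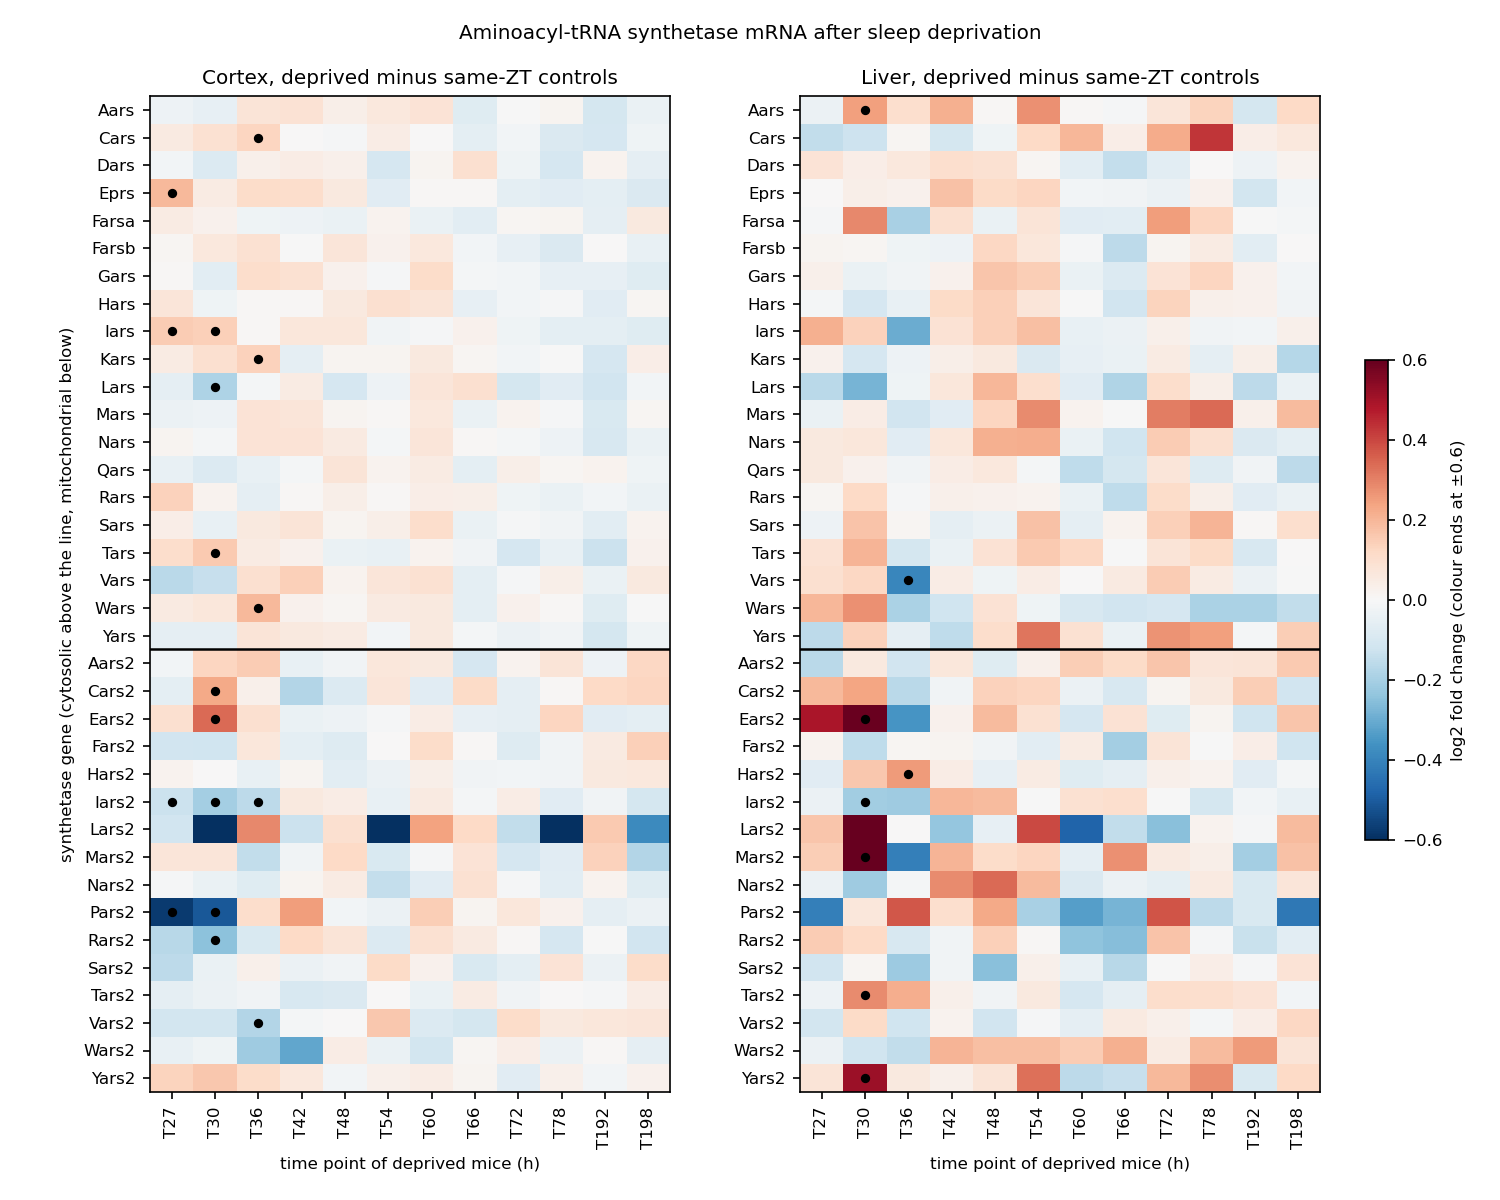
Log2 fold change of each synthetase (rows, cytosolic above the line and mitochondrial below) at each time of the deprived mice (columns) against controls of the same ZT, in cortex on the left and liver on the right. Black dots mark limma adjusted p under 0.05. Called members lie between T27 and T36 in both tissues, and Lars2 has deep colours with no dot.

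Pars2, the mitochondrial prolyl-tRNA synthetase (chromosome 4, 106651069 to 106655282, plus strand), showed the largest called change in cortex. At T27 it had 2.17, 2.24 and 2.07 log2 CPM in deprived mice, against 2.68, 2.71 and 2.82 in ZT3 controls. At T30 it had 2.35, 2.44 and 2.21 in deprived mice, against 2.70, 2.92, 2.84, 2.86 and 2.87 in ZT6 controls. All 6 deprived libraries lay below all 8 controls. The change was −0.57 at T27 (SE 0.09, 1.49-fold lower, adjusted p = 1.95e-05) and −0.51 at T30 (SE 0.09, 1.42-fold lower, adjusted p = 8.84e-06). Over the 62 cortex libraries Pars2 averaged 2.58 log2 CPM.

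Iars and Iars2 charge isoleucine tRNA in the cytosol and in mitochondria, and in the deprived cortex Iars rose while Iars2 fell at both times. Iars had 6.50, 6.52 and 6.55 log2 CPM in deprived mice at T30, against 6.36, 6.40, 6.36, 6.38 and 6.40 in ZT6 controls. Iars2 had 5.88, 5.92 and 5.85 in the same deprived libraries, against 6.09, 6.08, 6.09, 6.04 and 6.14 in the controls. The deprived libraries lay above every control for Iars and below every control for Iars2. Iars changed by 0.15 at T27 (SE 0.05, 1.11-fold, adjusted p = 0.016) and 0.14 at T30 (SE 0.04, 1.10-fold, adjusted p = 0.00832). Iars2 changed by −0.13 at T27 (SE 0.04, adjusted p = 0.0371) and −0.21 at T30 (SE 0.04, 1.15-fold lower, adjusted p = 9.13e-05). The Iars call at T27 was lost without deprived library T27S3 (0.12, adjusted p = 0.102) or control T3N4 (0.13, 0.114). The Iars2 call at T27 was lost without any of 5 single libraries, deprived T27S2 (−0.11, 0.156) or T27S5 (−0.11, 0.141), or control T3N2 (−0.14, 0.0652), T3N3 (−0.12, 0.109) or T3N4 (−0.13, 0.0814). The Iars call at T30 was lost without deprived library T30S4 (adjusted p = 0.0538).

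Eprs, the cytosolic enzyme that carries both the glutamyl and the prolyl activity, was called at T27 alone of these times. It had 6.85, 6.86 and 6.85 log2 CPM in deprived mice, against 6.68, 6.67 and 6.63 in ZT3 controls, with no overlap. The change was 0.19 (SE 0.04, 1.14-fold, adjusted p = 0.00119). At T30 its change was 0.05 (SE 0.04, adjusted p = 0.383), a difference between the times that was not tested.

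The other members called higher at T30 in cortex were Ears2 (mitochondrial glutamyl), Cars2 (mitochondrial cysteinyl) and Tars (cytosolic threonyl). Ears2 had 3.11, 3.10 and 3.13 log2 CPM in deprived mice, against 2.79, 2.61, 2.88, 2.76 and 2.83 in controls, a change of 0.34 (SE 0.09, 1.26-fold, adjusted p = 0.00252). Cars2 had 3.81, 3.71 and 3.78 in deprived mice, against 3.56, 3.58, 3.53, 3.62 and 3.40 in controls, a change of 0.23 (SE 0.06, 1.17-fold, adjusted p = 0.00159). Tars had 5.12, 5.13 and 5.15 in deprived mice, against 4.87, 5.03, 4.93, 4.94 and 5.11 in controls, a change of 0.16 (SE 0.05, 1.12-fold, adjusted p = 0.0101). Every deprived library lay above every control for all of them, but for Tars the gap to control T6N4 was small.

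Members called lower at T30 were, beside Pars2 and Iars2, Rars2 (mitochondrial arginyl) and Lars (cytosolic leucyl). Rars2 had 4.15, 4.02 and 4.14 log2 CPM in deprived mice, against 4.36, 4.40, 4.31, 4.16 and 4.52 in controls, a change of −0.25 (SE 0.07, 1.19-fold lower, adjusted p = 0.00294). Lars had 5.51, 5.60 and 5.46 in deprived mice, against 5.69, 5.75, 5.71, 5.61 and 5.80 in controls, a change of −0.19 (SE 0.05, 1.14-fold lower, adjusted p = 0.00184). Neither pair of groups overlapped, although control T6N3 lay close above the nearest deprived library for both. The other 28 members were not called at T30.

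**Figure D2:**
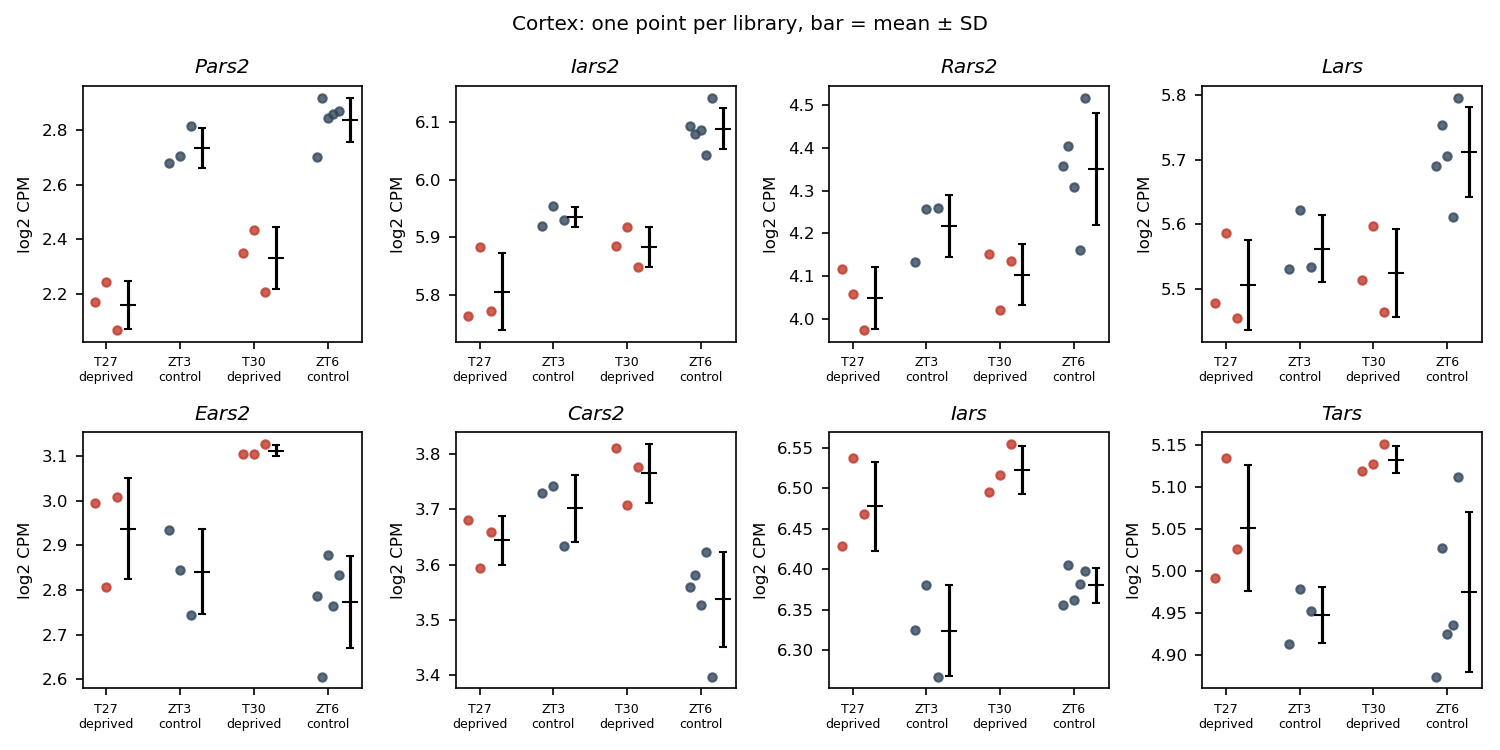
Log2 CPM of the 8 members called in cortex at T30 (panels), 1 point per library, for T27 deprived, ZT3 control, T30 deprived and ZT6 control mice; bars are mean ± SD, and each axis has its own range. At T30 the deprived points of Pars2, Iars2, Rars2 and Lars lie below all controls and those of Ears2, Cars2, Iars and Tars above them.

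After 6 h of recovery (T36) 5 members were called in cortex, against 12.5% of all genes (6.9% higher and 5.58% lower), and from T42 to T198 none was. The members called higher were all cytosolic, Wars (tryptophanyl), Kars and Cars (cysteinyl), and those called lower were the mitochondrial Iars2 and Vars2 (valyl). Wars had 6.58, 6.45 and 6.52 log2 CPM in deprived mice, against 6.31, 6.30, 6.35, 6.29 and 6.37 in ZT12 controls, a change of 0.19 (SE 0.04, 1.14-fold, adjusted p = 0.000514). Iars2 had 5.90, 5.94 and 5.99 in deprived mice, against 6.11, 6.09, 6.10, 6.14 and 6.05 in controls, a change of −0.15 (SE 0.04, 1.11-fold lower, adjusted p = 0.00737). Neither pair of groups overlapped. Of 5 endothelial markers 3 were higher at T36 (median change 0.30), with a summed level of 90.2 to 99.9 CPM in deprived mice, against 71.2 to 85.9 CPM in controls. None of 5 oligodendrocyte markers was called (median change −0.25), and they summed to 1931 to 2085 CPM in deprived mice, against 2047 to 2624 CPM in controls. No marker of either list was at 0. At T36 1 of 5 astrocyte markers was higher and 1 of 5 microglial markers lower. The part of all these cells in the T36 results was not tested. Kars changed by 0.14 (adjusted p = 0.016), Cars by 0.13 (0.0365) and Vars2 by −0.18 (0.035). Without deprived library T36S1 Wars alone remained called, and without control T12N2 the count was 3. Cars also lost its call without control T12N5 or deprived T36S2, and Vars2 without control T12N1 or T12N6 or deprived T36S4. With ZT12 controls of the same batch the count was 3, and Cars (0.0824) and Vars2 (0.113) were not called. At the later times the percent of all genes called was 1.03 at T42, 1.49 at T48 and 0 from T54 on. Between 0 and 10 members had an unadjusted p under 0.05, the 10 being at T192. The share of all genes under that unadjusted limit was not computed. At T54 1 member was called without deprived library T54S4.

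In liver the count of members called at the end of deprivation was close to the share of all genes. The called members were mostly higher and mostly mitochondrial. At T27 none of the 36 was called, against 1.5% of all genes, and 1 had an unadjusted p under 0.05. That was Ears2, with 3.77, 4.08 and 3.98 log2 CPM in deprived mice, against 3.02, 3.60 and 3.75 in ZT3 controls (0.49, SE 0.14, adjusted p = 0.0625). The count was 1 without control T3N4 or after centring of the libraries. At T30 6 members were called, 5 higher and 1 lower, against 15.8% of all 13338 genes (7.84% higher and 7.95% lower). Mitochondrial members called higher numbered 4 of 16, and the lower one, Iars2, was mitochondrial too. Of the 20 cytosolic members 1, Aars, was called. Without deprived library T30S1 the count was 3. None of 4 cholangiocyte markers was called (median change −0.73), and they summed to 4.63 to 6.49 CPM in deprived livers, against 6.99 to 17.5 CPM in control livers. None was at 0, and their part in the T30 results was not tested. The median change of the 36 was 0.09, beside 0.00 for all genes.

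Yars2, the mitochondrial tyrosyl-tRNA synthetase (chromosome 16, 16302965 to 16309640, plus strand), had the smallest p in liver at T30. It had 4.18, 3.86 and 4.13 log2 CPM in deprived mice, against 3.66, 3.53, 3.53, 3.73 and 3.39 in ZT6 controls. The change was 0.51 (SE 0.09, 1.43-fold, adjusted p = 0.000125). Ears2 had 3.90, 3.81 and 3.80 in deprived mice, against 3.27, 3.31, 3.17, 3.47 and 3.15 in controls, a change of 0.59 (SE 0.13, 1.51-fold, adjusted p = 0.00121). For both genes all deprived libraries lay above all controls.

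Mars2, which charges the mitochondrial methionine tRNA, had 3.06, 2.94 and 2.88 log2 CPM in deprived livers at T30, against 2.34, 2.49, 2.10, 2.58 and 2.29 in control livers. The change was 0.62 (SE 0.16, 1.54-fold, adjusted p = 0.00453), the largest among called members of either tissue. Tars2, the mitochondrial threonyl enzyme, had 5.27, 4.97 and 5.03 in deprived livers, against 4.74, 4.80, 4.79, 4.88 and 4.77 in control livers (0.28, SE 0.08, 1.22-fold, adjusted p = 0.00941). Groups of both genes were separate. The Tars2 call was lost without deprived library T30S1 (0.19, adjusted p = 0.182), which was its highest.

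Aars, the cytosolic alanyl enzyme, had 7.93, 7.83 and 7.89 log2 CPM in deprived livers, against 7.83, 7.61, 7.71, 7.72 and 7.52 in control livers. Its highest control, J76N1, lay just under the lowest deprived library, and the change was 0.25 (SE 0.09, 1.19-fold, adjusted p = 0.0404). Iars2 had 6.05, 6.19 and 6.23 in deprived livers, against 6.44, 6.45, 6.38, 6.31 and 6.34 in control livers (−0.21, SE 0.07, 1.15-fold lower, adjusted p = 0.0307), the same direction as in cortex. These 2 calls were lost with the unlabelled 3-level factor that had been removed from the liver values in the model (adjusted p = 0.0581 for Aars and 0.0501 for Iars2), with same-batch controls (0.132 and 0.128) and without deprived library T30S1 (0.182 and 0.256). Aars also lost its call without deprived library T30S4 (0.099), or control J76N2 (0.0824) or T6N4 (0.119), and after centring of the libraries (0.0575). Iars2 lost its call without control J76N2 (0.0507) or T6N2 (0.0581).

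**Figure D3:**
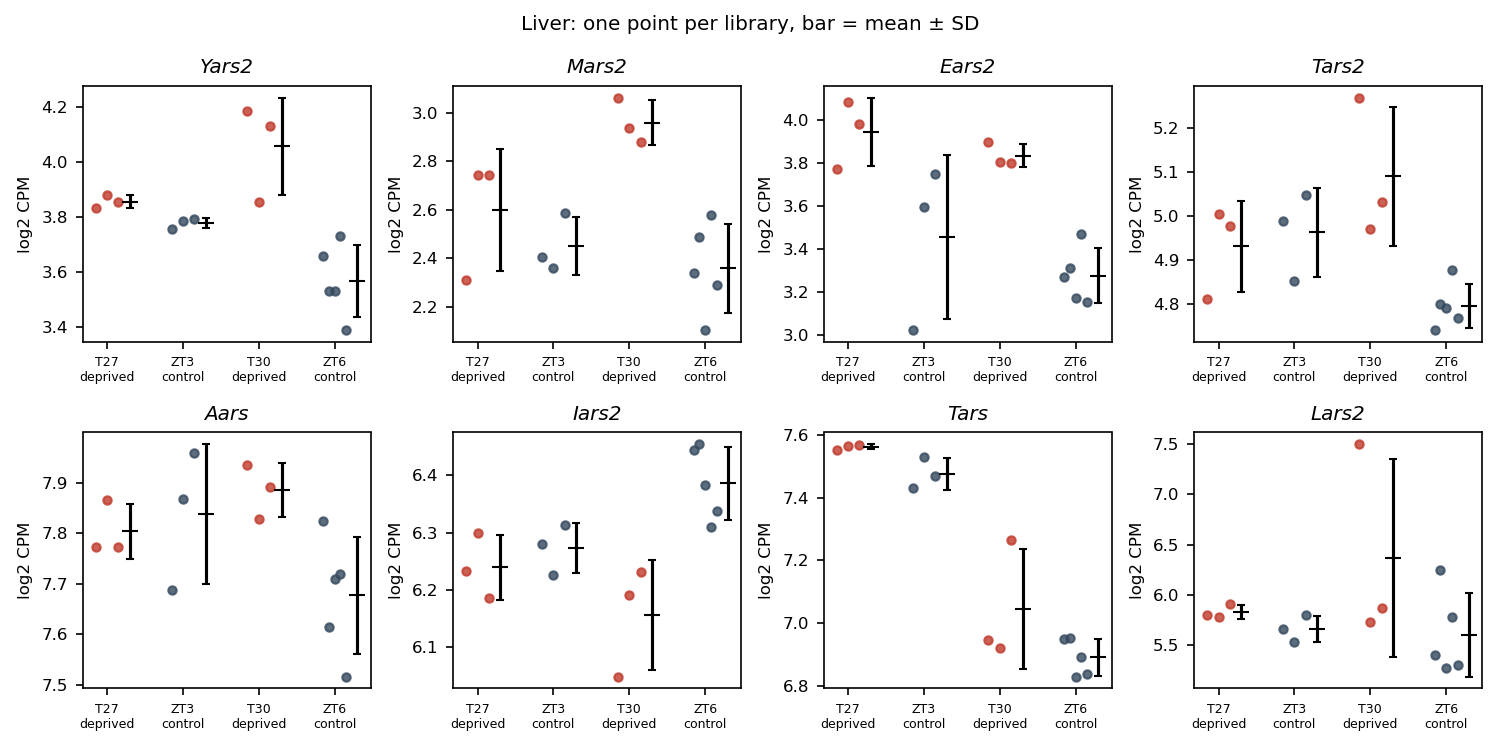
Log2 CPM in liver, 1 point per library, for the 6 members called at T30 and for Tars and Lars2, which were not; bars are mean ± SD and each axis has its own range. At T30 the deprived points of Yars2, Mars2, Ears2, Tars2 and Aars lie above all ZT6 controls and those of Iars2 below them, and Lars2 has 1 deprived library at 7.50.

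At T36 liver had 2 called members, against 3.16% of all genes (1.64% higher and 1.52% lower). Hars2, the mitochondrial histidyl enzyme, had 5.04, 5.07 and 5.02 log2 CPM in deprived mice, against 4.82, 4.77, 4.75, 4.79 and 4.79 in ZT12 controls (0.26, SE 0.07, 1.19-fold, adjusted p = 0.0206). Vars, the cytosolic valyl enzyme, had 4.60, 4.56 and 4.68 in deprived mice, against 5.06, 4.77, 4.88, 5.15 and 5.20 in controls (−0.39, SE 0.10, 1.31-fold lower, adjusted p = 0.016). The groups did not overlap for either gene. Neither call held with same-batch controls (adjusted p = 0.091 for Hars2 and 0.179 for Vars), without deprived library T36S1 (0.0759 and 0.0699) or without T36S2 (0.0805 and 0.072). From T42 to T198 no member was called in liver, against 0.015% of all genes at T48 and 0 at the other times. At these times 0 to 5 members had an unadjusted p under 0.05, and the share of all genes under that limit was not computed. The members called higher at T30 were also set against the ZT6 controls at T54 and T78. At T54 Yars2 changed by 0.33, Aars by 0.27, Mars2 by 0.13, Ears2 by 0.09 and Tars2 by 0.06. At T78 the changes were 0.28, 0.14, 0.03, 0.02 and 0.10 in the same order.

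The tissues were compared directly by testing the difference between the effect in cortex and the effect in liver, over 12199 genes measured in both. At T27 no member was called (limma), against 2.12% of all genes. An unadjusted p under 0.05 was found for 2 members at T27 and 13 at T30, and the share of all genes under that limit was not computed. At T30 5 members differed, against 12.2%: Tars2, Lars2, Mars2, Aars and Yars2, all with a lower effect in cortex. Tars2 changed by −0.03 in cortex and 0.28 in liver, a difference of −0.32 (SE 0.09, adjusted p = 0.00968). Mars2 changed by 0.07 in cortex and 0.62 in liver, a difference of −0.55 (SE 0.17, adjusted p = 0.0227). Aars changed by −0.05 in cortex and 0.25 in liver (difference −0.30, adjusted p = 0.0286), and Yars2 by 0.16 and 0.51 (difference −0.35, adjusted p = 0.0324). Pars2, lower in cortex, changed by 0.07 in liver (SE 0.23), and its difference of −0.58 was not called (adjusted p = 0.119). The count was 1 without deprived mouse T30S1, 2 without deprived mouse T30S4 or control T6N4, and 3 without control T6N2. The share of all genes called in these fits is not given here, so the lower counts cannot be read as particular to the members. With the animal as a replicate block the count was again 5.

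Lars2, the mitochondrial leucyl enzyme (chromosome 9, 123366927 to 123462666, plus strand), had single libraries far from the rest of their groups. In cortex it had 4.84, 5.09 and 4.74 log2 CPM in deprived mice at T30, against 5.11, 5.16, 4.89, 8.00 and 4.93 in ZT6 controls, the value of 8.00 being control T6N3. In liver it had 7.50, 5.73 and 5.87 in deprived mice, the first being T30S1, against 5.40, 6.25, 5.27, 5.78 and 5.31 in controls. Its changes at T30 were not called in either tissue (−0.73, adjusted p = 0.0592 in cortex, and 0.81, adjusted p = 0.0938 in liver). The tissue difference of −1.53 (SE 0.47, adjusted p = 0.0195) was −0.90 without control T6N3 (adjusted p = 0.119) and −0.94 without deprived mouse T30S1 (adjusted p = 0.332).

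The same libraries were high for the noncoding gene model Gm42418 on chromosome 17. It had 10.57 log2 CPM in cortex control T6N3, against a median of 6.98 over the 62 cortex libraries, and 9.89 in the deprived liver T30S1, against a median of 8.19 over the 62 liver libraries. Gm26917, also noncoding and on chromosome 17, had 6.44 in cortex control T6N3, against a median of 1.70. For all 3 genes control T6N3 was the highest of the 62 cortex libraries and deprived library T36S2 the next, and in liver control T12N1 was the highest for Lars2 (7.92) and Gm42418 (10.08), with deprived T30S1 next. The part of this signal in the Lars2 values was not tested.

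Averaged over compartments, the changes were small. In cortex at T27 the cytosolic members averaged 0.03 ± 0.06 (SD, n = 3) above the ZT3 controls and the mitochondrial members −0.08 ± 0.01. For the mitochondrial mean the 3 deprived libraries were at −0.09 to −0.07 and the 3 controls at −0.03 to 0.03. With the median over mitochondrial members the groups overlapped, at −0.08 to −0.03 in deprived libraries and −0.04 to 0.03 in controls. The lowest change among the 16 mitochondrial members was −0.57, that of Pars2. The cytosolic mean minus the mitochondrial mean was 0.10 ± 0.08 in deprived mice, with a range of 0.04 to 0.19, against −0.02 to 0.02 in controls. Without deprived library T27S3 it was 0.06, and the cytosolic mean was −0.01. At T30 this difference was 0.07 ± 0.02 in cortex, but controls ranged from −0.13 to 0.08. It was 0.02 without Lars2, or with the median over members, and 0.04 without control T6N3. In liver at T30 the mitochondrial members averaged 0.17 ± 0.12 and the cytosolic members 0.05 ± 0.05 relative to the ZT6 controls, but without deprived library T30S1, the one high for Lars2 and Gm42418, these means were 0.10 and 0.01. The mitochondrial mean was 0.31 in T30S1 and 0.10 in each of the other deprived livers. The difference had the other sign, −0.13 ± 0.07, with a range of −0.20 to −0.09 in deprived mice, against −0.11 to 0.07 in controls, and it was −0.09 without Lars2 or without T30S1. Among the 13 amino acids with a cytosolic and a mitochondrial gene of the same name, the cytosolic gene had the higher change in 9 pairs at T27 and 6 at T30 in cortex, and in 8 and 6 pairs in liver.

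**Figure D4:**
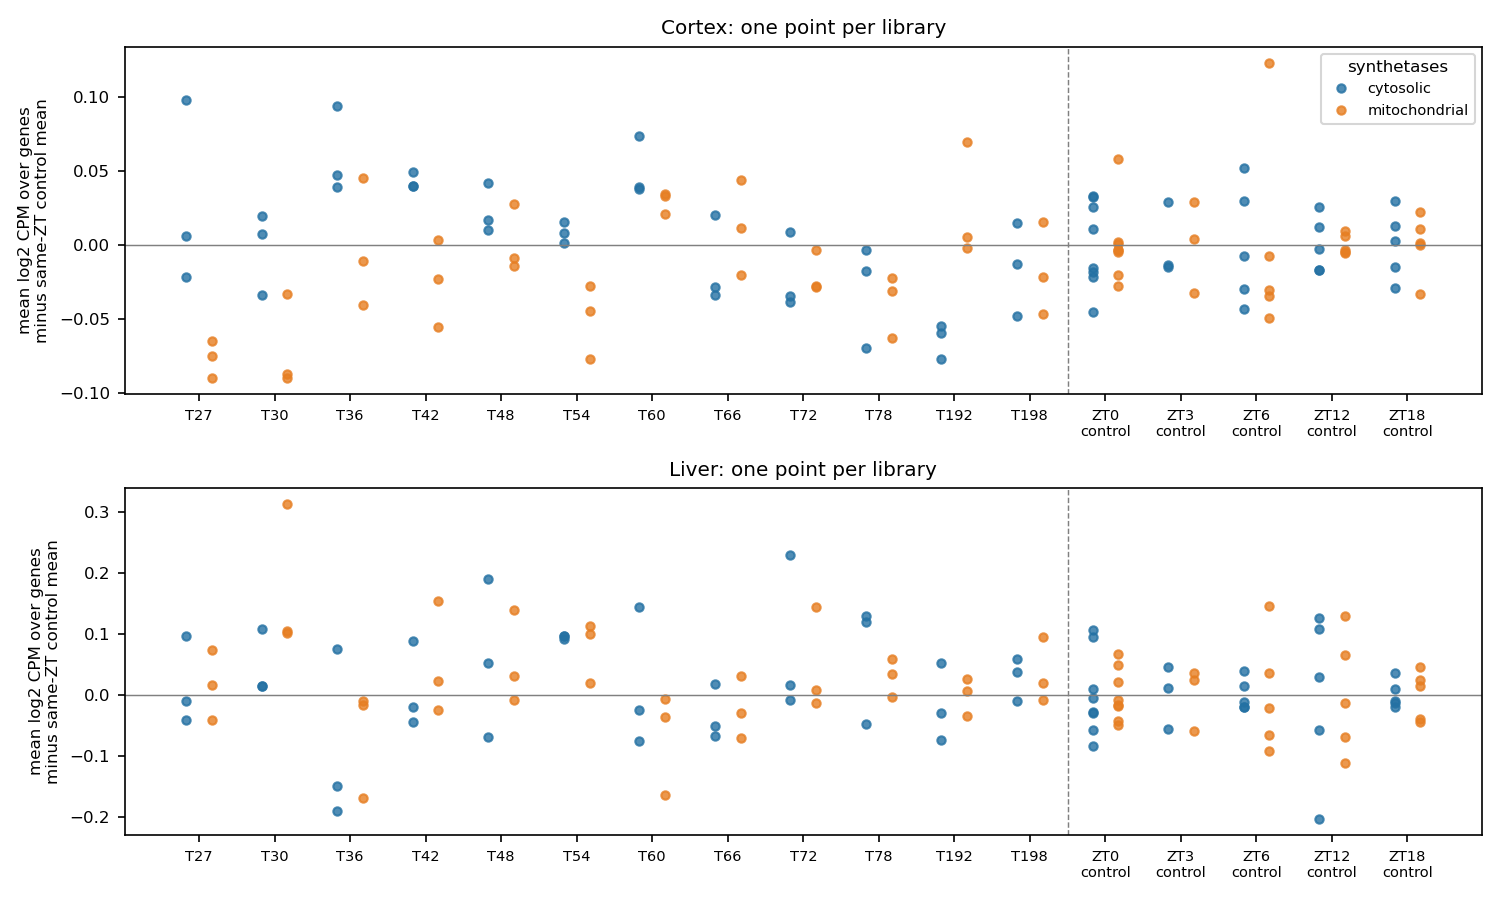
Mean over the 20 cytosolic (blue) and 16 mitochondrial (orange) members in each library, in log2 CPM minus the mean of the controls of the same ZT, with deprived groups left of the dashed line and controls right of it, cortex above and liver below. In cortex the mitochondrial means at T27 lie at −0.09 to −0.07; the cortex ZT6 control at 0.12 is T6N3, the library with the high Lars2.

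The members of the large complex can be set beside the other cytosolic enzymes by count. In cortex at T30 2 of its 8 members were called (Iars higher, Lars lower), and 1 of the 12 others (Tars higher), against 32.4% of all genes. At T27 the counts were 2 of 8 (Eprs and Iars, both higher) and 0 of 12, against 16.4%. Of its 3 scaffold genes, Aimp1 was lower in cortex at T30 (−0.12, adjusted p = 0.0486) and Eef1e1 was higher in liver at T30 (0.76, SE 0.19, 1.69-fold, adjusted p = 0.00416).

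In undisturbed mice the members differed by time of day about as often as other genes did. An F test over the 5 control times called 17 of 36 members in cortex, against 41.9% of all genes, and 18 of 36 in liver, against 52%. Within batch 1 controls the counts were 7 in cortex and 8 in liver. That fit has fewer libraries, and its share of all genes is not given here. The lower counts therefore cannot be read as particular to the members. The median range between the highest and the lowest control mean was 0.13 for members in cortex (0.11 cytosolic, 0.17 mitochondrial), beside 0.21 for all genes. In liver it was 0.22 (0.19 cytosolic, 0.33 mitochondrial), beside 0.42.

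In cortex the members with the smallest p were Pars2, Iars2, Rars2 and Lars. Pars2 averaged 2.44 ± 0.11 log2 CPM at ZT0, 2.73 ± 0.07 at ZT3, 2.84 ± 0.08 at ZT6, 2.67 ± 0.08 at ZT12 and 2.38 ± 0.16 at ZT18 (SD; adjusted p = 9.06e-07). Its mean in deprived mice was 2.16 ± 0.09 at T27 and 2.33 ± 0.11 at T30. Rars2 peaked at ZT6 (4.35 ± 0.13) and was lowest at ZT18 (4.00 ± 0.08; adjusted p = 3.92e-06), and Lars likewise peaked at ZT6 (5.71 ± 0.07) and was lowest at ZT18 (5.46 ± 0.05; adjusted p = 3.00e-05). Iars2 was high at ZT6 (6.09 ± 0.04) and ZT12 (6.10 ± 0.03), means that differed by less than their SD, and lower at ZT0 (5.93 ± 0.06), ZT3 (5.93 ± 0.02) and ZT18 (5.94 ± 0.06; adjusted p = 2.33e-06). The T30 means of deprived mice were 4.10 ± 0.07 for Rars2, 5.53 ± 0.07 for Lars and 5.88 ± 0.04 for Iars2. These comparisons share the ZT6 controls, so the values are set side by side only.

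In liver Tars had the widest range of the called members. It averaged 7.62 ± 0.05 log2 CPM at ZT0, 7.48 ± 0.05 at ZT3, 6.89 ± 0.06 at ZT6, 6.80 ± 0.24 at ZT12 and 7.39 ± 0.15 at ZT18, a range of 0.82 (1.77-fold, adjusted p = 1.35e-13). The ZT6 and ZT12 means differed by less than the SD at ZT12. In deprived livers Tars had 7.56 ± 0.01 at T27 (n = 3) and 7.04 ± 0.19 at T30 (n = 3), and neither difference was called. Cars, the cytosolic cysteinyl enzyme, ranged from 5.33 ± 0.16 at ZT3 to 4.60 ± 0.19 at ZT12 (1.65-fold, adjusted p = 5.65e-05). Mars2 was lowest at ZT6 (2.36 ± 0.18) and highest at ZT12 (3.12 ± 0.16; adjusted p = 6.84e-05), and its T30 level in deprived mice was 2.96 ± 0.09. Iars2 was highest at ZT12 (6.41 ± 0.06) and lowest at ZT18 (6.11 ± 0.11; adjusted p = 2.17e-05). Of the members called higher in liver at T30, Yars2, Ears2, Mars2 and Aars had their lowest control mean at ZT6, and Tars2 at ZT12. The T30 comparison uses the same ZT6 controls, so in liver too the values are set side by side only.

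**Figure D5:**
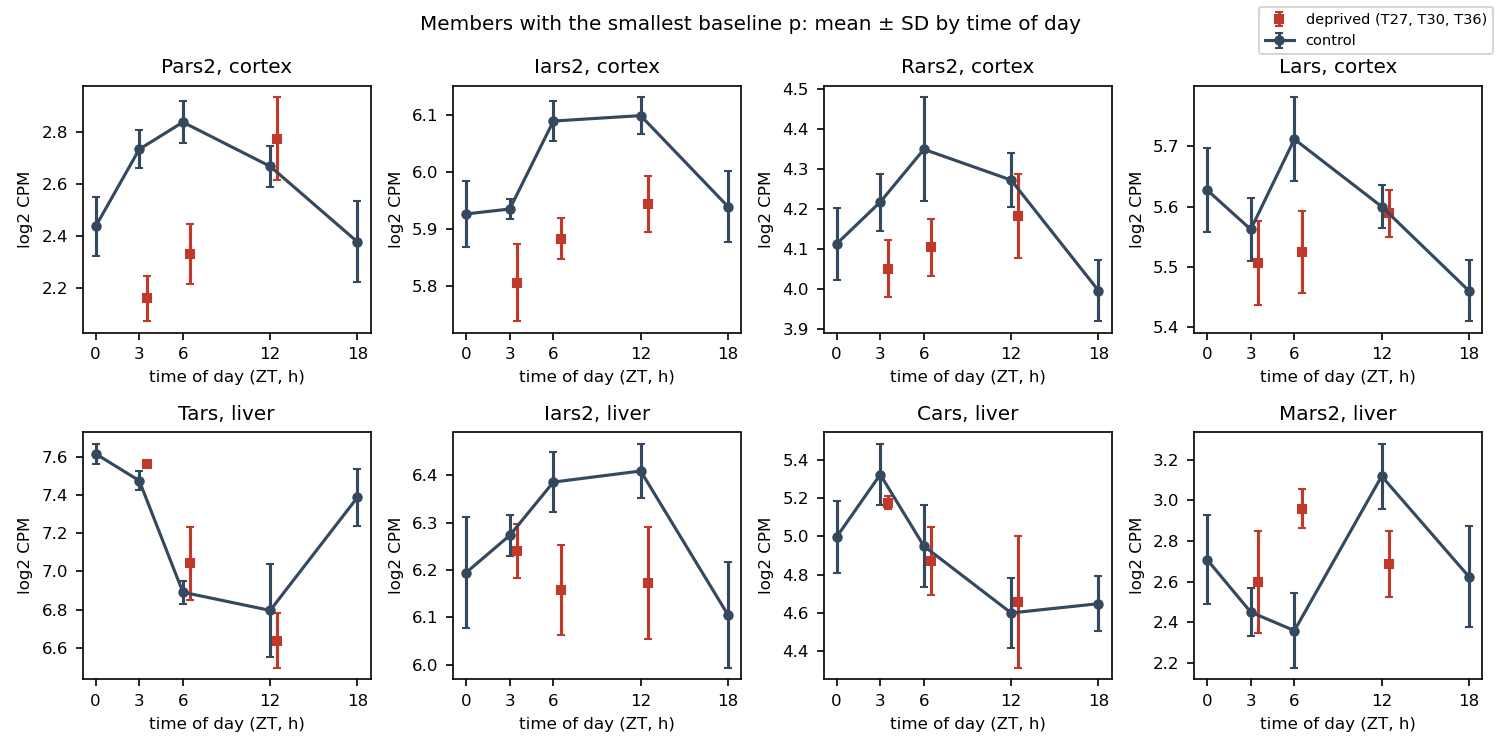
Mean ± SD of log2 CPM in controls by time of day (dark line, n = 8, 3, 5, 5 and 5) and in deprived mice at T27, T30 and T36 (red squares, n = 3, drawn just right of their ZT), for the 4 members with the smallest baseline p in cortex (above) and liver (below). In cortex the T27 and T30 squares of Pars2, Iars2 and Rars2 lie under the control line, and in liver Tars has its low at ZT6 and ZT12.

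Other genes of the pathway were read from lists chosen with earlier results of these data known. In cortex 8 of 31 amino acid response genes were called higher and none lower at T27, against 8.59% of all genes higher, and 10 were higher and 3 lower at T30, against 15.7% higher and 16.8% lower. The list's median change was 0.14 at T27 and 0.12 at T30, beside −0.01 for all genes at each time. Atf4 averaged 7.11 ± 0.09 log2 CPM in deprived mice at T27 and 6.83 ± 0.05 in controls (0.28, SE 0.05, adjusted p = 0.000166), and 7.13 ± 0.01 in deprived mice at T30 and 6.85 ± 0.07 in controls (0.28, SE 0.05, adjusted p = 2.37e-05). Gpt2, a mitochondrial alanine aminotransferase, changed by 0.53 at T30 (SE 0.06, 1.45-fold, adjusted p = 6.55e-09), and Ddit3, which encodes CHOP, by 0.28 (adjusted p = 0.0126). Aldh18a1, of proline synthesis, changed by 0.28 (adjusted p = 3.57e-05) and the amino acid transporter Slc38a2 by 0.41 (adjusted p = 0.000669). Asns, asparagine synthetase, was lower at T30 (−0.14, adjusted p = 0.0135). Chac1 (0.03, adjusted p = 0.874) and Trib3 (0.08, adjusted p = 0.891) were not called.

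Of the 5 synthetases whose promoters hold that motif, Iars (0.14) and Tars (0.16) were called higher in cortex at T30, while Aars (−0.05, SE 0.05), Gars (−0.06, SE 0.04) and Yars (−0.05, SE 0.04) were not called. In liver Aars was called higher (0.25), and Gars (−0.04, SE 0.08), Iars (0.14, SE 0.10), Tars (0.21, SE 0.10) and Yars (0.14, SE 0.10) were not. In liver the amino acid response list had 3 of 26 measured genes higher and 2 lower at T30, against 7.84% and 7.95% of all genes, with Cebpg higher (0.62, adjusted p = 0.000314), Trib3 lower (−1.83, SE 0.32, adjusted p = 6.58e-05) and Atf4 not called (−0.11, SE 0.12, adjusted p = 0.601). Asns (0.17, adjusted p = 0.905), Ddit3 (0.22, adjusted p = 0.664) and Chac1 (1.52, adjusted p = 0.153) were not called there.

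Genes that make tRNA ready for charging were read at T30 too. In cortex 6 of 17 genes of tRNA maturation and export were lower and 1 was higher, against 16.8% of all genes lower. Elac1, a tRNA 3′ processing enzyme, changed by −0.26 (SE 0.05, adjusted p = 1.04e-05), Trmt6, a tRNA methyltransferase subunit, by −0.21 (adjusted p = 0.00157), and Nsun2, a tRNA cytosine methyltransferase, by 0.10 (adjusted p = 0.0391). In liver 3 of 17, Trmt1, Tsen54 and Pus7, were higher at T30 and none lower, against 7.84% of all genes higher and 7.95% lower. Of 13 mitochondrial translation factors, cortex at T30 had 3 lower, Gatb (−0.27), Mtif2 and Mtrf1 (−0.42), and 1 higher, Tufm (0.24, adjusted p = 0.000368), which together is close to the 32.4% of all genes. Liver at T30 had 3 higher, Gatc, Gfm2 and Mrrf (0.33, adjusted p = 0.00125), and none lower. The shares of all liver genes were 7.84% higher and 7.95% lower. Gatb and Gatc are subunits of the amidotransferase that makes mitochondrial glutaminyl-tRNA. Among 9 cytosolic elongation and termination factors, Eef1d was higher in cortex at T30 (0.21, adjusted p = 0.00054).

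Some members overlap other genes in the GENCODE annotation of GRCm38, 11 of the 36 with a protein-coding gene. Among members called after deprivation these were Aars (with Exosc6), Cars2 (Naxd), Ears2 (Ubfd1), Iars2 (Rab3gap2), Hars2 (Hars) and Wars (Wdr25), and among those called by time of day alone Farsb in cortex (Sgpp2) and Yars (C77080) and Fars2 (Lyrm4 and Nrn1) in liver. Mars, which was not called, overlaps Ddit3 of the amino acid response list. The sources used here do not say whether reads were assigned by strand. Values of overlapping genes, that of Ddit3 included, may therefore hold reads of the partner.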

How the data were processed

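The deposited values are log2 CPM per gene, 1 table a tissue, which the authors computed from RNA-seq of the cortex and liver of 62 mice. Libraries were made with TruSeq Stranded mRNA reagents and read single-end, per the labels' protocols, and fastp, STAR 2.7.0e, edgeR and the build mm10 are named in the submitters' processing notes. The labels describe the cortex libraries as taken again from an earlier study. Gene counts were not used here, so the counting error of each value is unknown, and the sources used here do not say whether counting used strand.

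Rows with no gene name (77 in cortex, 35 in liver, 0.0618% and 0.0337% of the signal) were left out. Each tissue was fitted with limma 3.58.1 (R 4.3.3) on all 62 libraries, with 17 groups and the labelled batch (40 and 22 libraries) as terms, a mean-variance trend and Benjamini-Hochberg adjustment over all genes, with 44 residual degrees of freedom. Fold changes are model estimates, so in liver they differ slightly from differences of means. Batch 2 holds every deprived mouse of the T60, T66, T192 and T198 groups and batch 1 the other deprived mice. The values had been adjusted before deposit: 1 dimension was missing from the cortex table and 2 from the liver table. Such a factor can be read only within groups. In cortex it separated the 10 batch 2 controls from the other controls, and in liver it split groups into 3 levels (50, 4 and 8 libraries) that the labels do not name. Without that factor in the model liver p-values are too small, and a fit with it is among the alternatives. Each library is 1 mouse, so p-values measure the spread between mice.

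The tissue difference was fitted jointly on 124 libraries and 12199 shared genes. Animal labels pair the tissues, and same-animal deviations correlated at −0.0882 to 0.162, with a median of 0.0259. Named members were the 8 with the smallest p in cortex at T30, those changed by over 0.4 at T27, the 4 smallest in liver at T30, the 4 smallest by time of day and 2 at later times in each tissue, and the 3 smallest for the tissue difference. Other called members were added after their values were seen. Members and lists were chosen with earlier results of these data known. Alternatives were centring of libraries on their median, a filter on the 20% of genes with the lowest means, log2(CPM + 1), same-batch controls, the 3-level factor, the animal as a block for the tissue difference, and leaving out each library. The model was tested on simulated data. Promoters were read from RefSeq (GRCm38.p6).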

Additional observations from a re-analysis of the deposited data

Results flagged for a closer look

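Some libraries stood apart from their group, measured as the gap to the nearest library over the range of the group, among 88 groups of named members checked, all with 4 to 10 libraries, so that no group of 3 is among them. Chance marks about 1 group in 20. Lars2 in cortex had a share of 0.912 at ZT6, with control T6N3 at 8.00 log2 CPM and the nearest ZT6 control at 5.16. Lars2 in liver had 0.756 at ZT12, with control T12N1 at 7.92 and the nearest at 6.13. Mars2 in cortex had 0.713 at ZT18, with control T18N4 at 5.33 and the nearest at 5.18. Hars2 in liver had 0.723 at ZT6, with control J76N1 at 4.76 and the nearest at 4.85.

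The effect of deprivation at T30 differed between tissues (cortex effect minus liver effect, limma interaction) for 5 of 36 members. That is close to the 12.2% of all 12199 shared genes. The difference was −0.297 for Aars, −1.535 for Lars2, −0.546 for Mars2, −0.319 for Tars2 and −0.354 for Yars2. Without deprived mouse T30S1 none of these 5 was called.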

How the results depend on the processing

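Of 274 values recomputed for 64 results under other settings, 241 were labelled unchanged, 31 lost the call, 2 moved and 0 reversed. With 1 library left out the numbers were 1050, 79, 1 and 0 of 1130. For contrasts of members, unchanged meant the same direction and call. Time-of-day F tests have no direction, so only their call was compared. Compartment differences counted as unchanged when they shifted by less than their SD, whatever their sign. In liver at T27 that difference ran from −0.0423 to 0.0399 with 1 library left out. With same-batch controls the count of called members was 3 in cortex at T36, 0 in liver at T36, 7 for time of day in cortex and 8 in liver. These fits had fewer samples, and their shares of all genes are not given here. Centring gave 1 in liver at T27. Leaving out 1 library gave 2 to 4 members in cortex at T27 (2 without control T3N4), 1 to 5 at T36 and 0 to 1 at T54. In liver it gave 0 to 1 at T27 (1 without control T3N4), 3 to 8 at T30 (3 without deprived T30S1) and 0 to 3 at T36. The tissue difference at T30 gave 1 to 6. The shares of all genes in the fits with 1 library left out are not given here either. With the animal as a replicate block the tissue difference gave 5 called members at T30 and 0 at T27. The cytosolic minus mitochondrial mean in cortex at T30 was 0.0178 with the median over members and 0.0242 without Lars2, the second chosen after seeing the data, as were the compartment means without single deprived libraries. Depth per library is unknown.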

Other observations

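In cortex at T192, among the latest times, the cytosolic members averaged −0.06 relative to the ZT0 controls, with the 3 deprived mice between −0.08 and −0.06, and the mitochondrial members averaged 0.02, or 0.00 without deprived library J70S1, at 0.07. The ZT0 controls ranged from −0.05 to 0.03 for the cytosolic mean and from −0.03 to 0.06 for the mitochondrial mean. In 0 of 13 pairs did the cytosolic gene have the higher change. No member was called with limma, nor was any of the 17108 genes. The lowest adjusted p of a member was 0.772, and 10 members had an unadjusted p under 0.05. The share of all genes under that unadjusted limit was not computed. All T192 mice are in batch 2, and the part of the batch in these values was not tested. In liver at T192 the cytosolic mean was −0.02 and the mitochondrial mean −0.00, with 6 of 13 pairs higher for the cytosolic gene.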
